A study of Mus musculus with 10 samples.

Results

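The genes described here are 9 genes of the colonic epithelium's oxidative and acute-phase defence, taken by name from the table of expression values: Duox2, Duoxa2, Nox1, Noxo1 and Nos2, which make or help to make hydrogen peroxide, superoxide or nitric oxide, and Lcn2, Saa1, Saa2 and Saa3, which encode secreted proteins of the acute-phase response. All 9 were found among the 55487 genes of the table, and 8 of them passed the filter of a mean of at least 1 TPM (transcripts scaled to a fixed sum per library) over all libraries. The genes were taken by name and by no cut on a measured value, but earlier results of these data were known when they were chosen. RNA of intestinal epithelial cells (IECs) from the colon was sequenced from 5 wild-type (WT) and 5 RhoB-/- mice, 1 library per mouse. All mice were on the C57BL/6J strain, and mice were used at 6 to 8 weeks of age unless another age was given. RhoB-/- mice lack both copies of Rhob, which encodes a small GTPase, in all cells of the body. The labels name no treatment for either genotype. The knockout was generated at a model organism centre, whereas WT males were bought from another supplier, so that genotype and origin of the mice cannot be told apart. Genotypes were compared to find which epithelial genes change when RhoB is missing.

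DUOX2 is an NADPH oxidase of the apical membrane of intestinal epithelial cells that releases hydrogen peroxide into the lumen, and DUOXA2 is the maturation factor that brings it to the surface. NOX1 makes superoxide in colonocytes and works with the organizer NOXO1, the activator NOXA1, the membrane partner p22phox (Cyba) and a Rac GTPase. NOS2 is the inducible nitric oxide synthase, lipocalin 2 (Lcn2) binds the siderophores with which bacteria collect iron, and the serum amyloid A proteins (Saa1, Saa2, Saa3) carry retinol and lipids and are made by gut epithelium as well as by liver. In the gut, contact with bacteria and the cytokines IL-22 and IL-17 are known inducers of Duox2, Nos2, Lcn2 and the Saa genes.

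Of the 8 genes above the filter, 6 were higher in RhoB-/- IECs, Duox2, Duoxa2, Nos2, Saa1, Saa2 and Saa3, and 2, Nox1 and Noxo1, did not pass the test in either direction. Each of the 8 had a mean above 1 TPM in WT mice alone, so none passed the filter only through RhoB-/- libraries. Genes were tested with limma on log2(TPM + 1) over the 12870 genes above the filter, and called at a Benjamini-Hochberg adjusted p below 0.05. Of all tested genes, 7.73% were called higher and 13.5% lower in RhoB-/- mice, and their median log2 fold change was -0.13, so that a gene at 0 lies slightly above the typical gene. When every library was recentred on the median gene, 2010 genes were called higher and 1645 lower in place of 995 and 1734. At an unadjusted p below 0.05 with a fold change above 1.5 6 of the 8 genes were called higher, beside 6.37% of the tested genes higher and 8.33% lower. The groups did not overlap, with every RhoB-/- library above every WT library, for 6 of the 9 genes and for 5.97% of the tested genes. A log2 fold change above 2 was found for 5 of the 8 genes and for 0.971% of the tested genes. Fold changes on this scale understate those of genes at low TPM. Since IECs were sequenced in bulk, more cells of a type and more RNA per cell cannot be told apart.

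**Figure D1:**
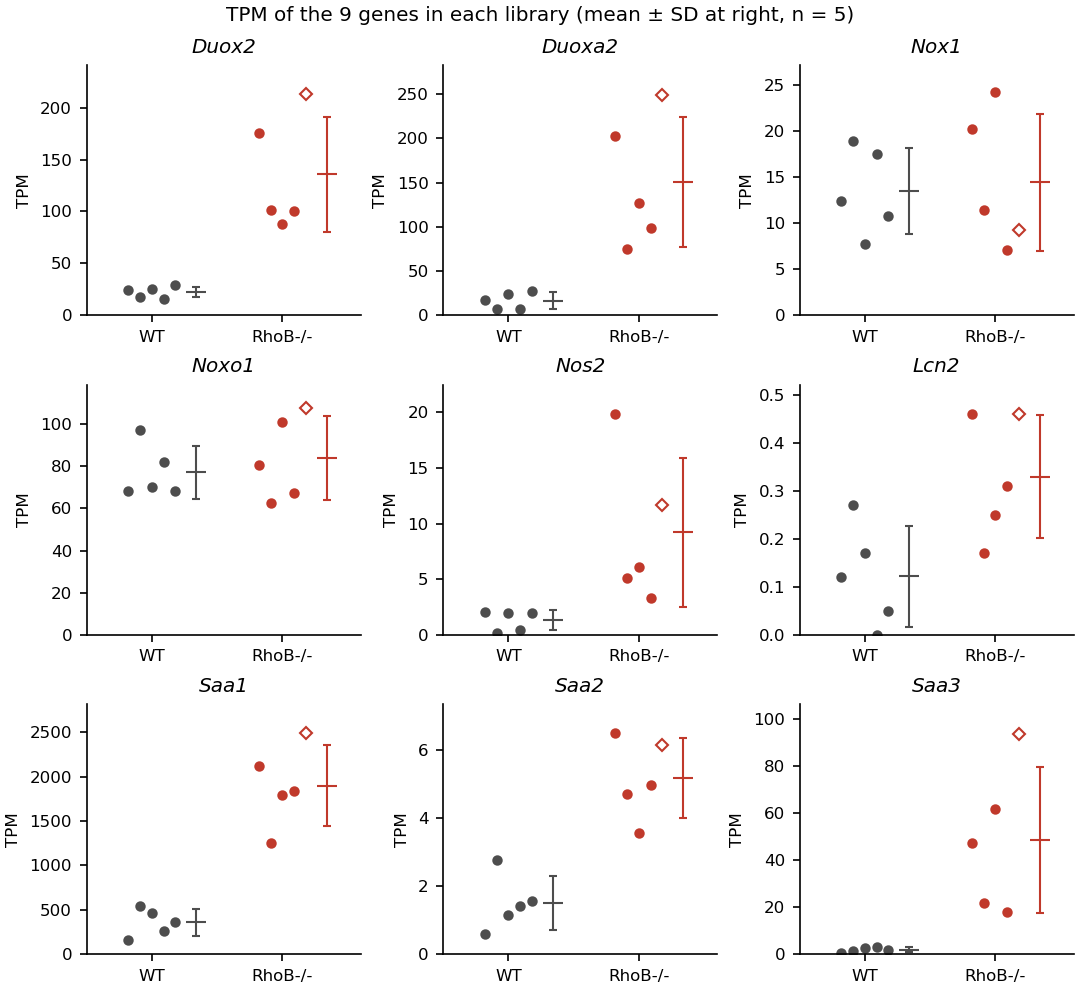
TPM of each of the 9 genes (linear axes from 0) in the 5 WT and 5 RhoB-/- libraries, with replicates 1 to 5 from left to right in each group, the library labelled RhoB-/- replicate 5 as an open diamond, and the mean ± SD (n = 5) at the right of each group. The groups are apart for Duox2, Duoxa2, Nos2, Saa1, Saa2 and Saa3, and they overlap for Nox1, Noxo1 and Lcn2.

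**Figure D2:**
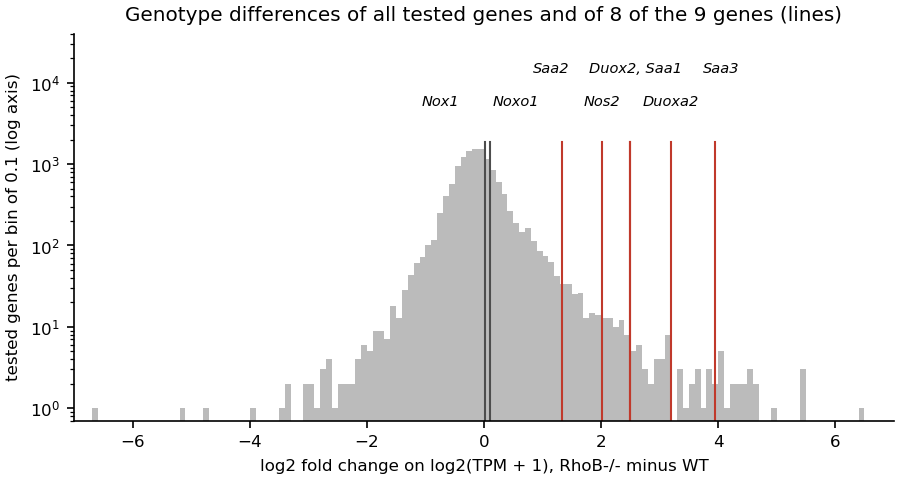
Number of tested genes (log axis) by log2 fold change of RhoB-/- against WT on log2(TPM + 1) in bins of 0.1, with lines at the values of 8 of the 9 genes, red for those called higher and grey for those not called. Saa3 at 3.95 and Duoxa2 at 3.19 lie far out in the upper tail, and Nox1 and Noxo1 lie in the bulk of the distribution.

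Rhob, the targeted gene, was at 0.09, 0.10, 0.35 and 0.57 TPM in RhoB-/- replicates 1 to 4 but at 110.87 TPM in the library labelled as replicate 5, so the difference between genotypes was also computed without it for each of the 9 genes and for the ratios between genes. Epithelial markers were abundant in every library, with a summed level of 20520 to 26628 TPM over 10 genes in WT and 21994 to 38929 TPM in RhoB-/- mice. Of the 10, 3 (Krt20, Vil1 and Cdx2) were called higher, beside 7.73% of all tested genes. Cdx2 was called in only 3 of the 10 fits that left out 1 library. TPM is a share of each library and does not hold read numbers, so depth is unknown and counting error cannot be stated. The mitochondrial genome supplied 17.5% to 26.5% of all TPM for WT and 10.3% to 22.4% for RhoB-/- libraries. Different mice gave the libraries of a group, so the SD is the spread between animals.

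Duox2 (ENSMUSG00000068452) is annotated in GENCODE release M21 on chromosome 2 (GRCm38), minus strand, at 122279247 to 122298449. Duoxa2 (ENSMUSG00000027225) runs the other way, on the plus strand from 122298900 to 122302885, so that the oxidase and its maturation factor are annotated head to head with 451 bases between their starts. The windows around their starts are shown because the pair rose together. They hold 250 bases before and 50 bases after each RefSeq start in GRCm38.p6, are written 5′ to 3′ on the strand of the gene, and cover chr2:122298178-122298477 for Duox2 (minus strand) and chr2:122298650-122298949 for Duoxa2 (plus strand). The 451 bases were counted between GENCODE starts. The RefSeq start of Duox2 lies inside its GENCODE gene, so most of the Duox2 window is gene and not the stretch between the pair. Capitals mark the match to the AP-1 motif (TGANTCA), which begins at -168 from the start of Duoxa2 and was found in 7.81% of 32851 promoter windows of the same length.
Duox2: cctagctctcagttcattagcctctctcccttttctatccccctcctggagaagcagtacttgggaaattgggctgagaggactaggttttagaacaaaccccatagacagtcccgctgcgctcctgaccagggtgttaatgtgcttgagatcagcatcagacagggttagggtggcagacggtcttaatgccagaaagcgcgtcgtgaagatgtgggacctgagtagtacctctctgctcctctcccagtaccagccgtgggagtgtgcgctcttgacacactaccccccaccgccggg
Duoxa2: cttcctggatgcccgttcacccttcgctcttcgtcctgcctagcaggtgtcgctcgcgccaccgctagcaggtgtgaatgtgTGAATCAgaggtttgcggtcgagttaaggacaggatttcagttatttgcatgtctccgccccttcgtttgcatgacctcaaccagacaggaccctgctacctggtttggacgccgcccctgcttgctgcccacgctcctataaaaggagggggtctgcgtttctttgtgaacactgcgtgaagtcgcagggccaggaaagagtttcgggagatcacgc
None of the 5 motifs searched on both strands (NF-kB, STAT, C/EBP, ISRE and AP-1) was present in the Duox2 window, which says only that those letters are not in these 300 bases.

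Duox2 was at 23.93, 17.88, 25.33, 15.92 and 28.63 TPM in WT replicates 1 to 5 and at 175.75, 101.69, 87.56, 100.63 and 213.30 TPM in RhoB-/- replicates 1 to 5. The lowest RhoB-/- library was above the highest WT library, and RhoB-/- replicates 1 and 5 were the highest. The mean level was 22.3 ± 5.29 TPM for WT and 135.8 ± 55.5 TPM for RhoB-/- (SD, n = 5 each), 6.08-fold higher, and the log2 fold change was 2.49 (95% interval 1.94 to 3.04, adjusted p = 5.02e-05 from limma). By level, Duox2 went from rank 4295 to rank 810 among the tested genes. Without the library labelled RhoB-/- replicate 5 the log2 fold change was 2.31 (limma adjusted p = 1.39e-04).

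Duoxa2 was at 17.67, 6.91, 23.58, 6.70 and 26.99 TPM in WT replicates 1 to 5 and at 202.63, 74.86, 127.23, 98.71 and 249.75 TPM in RhoB-/- replicates 1 to 5. The groups were well apart, although WT libraries differed among themselves by up to 4.03-fold and RhoB-/- libraries by up to 3.34-fold. The mean rose from 16.4 ± 9.35 to 150.6 ± 73.3 TPM (SD, n = 5 each), 9.20-fold, with a log2 fold change of 3.19 (95% interval 2.26 to 4.12, adjusted p = 4.34e-04 from limma). It was 2.97 (limma adjusted p = 0.00202) when the library labelled RhoB-/- replicate 5 was left out. The maturation factor was present at a median of 0.738 TPM per TPM of the oxidase in WT libraries (range 0.386 to 0.943) and at 1.15 in RhoB-/- libraries (0.736 to 1.45). This ratio, 1 of 7 ratios compared, did not differ past the threshold (two-sided exact permutation p = 0.0556, adjusted p = 0.0778 over the 7), and its ranges overlapped. Without the library labelled RhoB-/- replicate 5 the median of the 4 others was 1.07 (exact permutation p = 0.103).

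Duoxa1, the maturation factor of the other dual oxidase, rose as well, from 0.35 ± 0.170 to 1.83 ± 0.772 TPM (SD, n = 5 each; log2 fold change 1.03, limma adjusted p = 0.00790). Its gene lies on the opposite strand at the end of Duoxa2, and 682 of the 1592 exon bases of Duoxa2 are also exon of Duoxa1. The authors report alignment in orientation mode, but whether the counting used strand is not given in the sources used here, so reads of the overlap cannot be told apart. Duoxa1 passed the filter only through its level in RhoB-/- mice, so that its direction there was fixed. The ratio of Duoxa2 to Duoxa1 was 21.6 to 94.3 in WT and 65.9 to 106.3 in RhoB-/- libraries. Duox1 itself was hardly detected, at 0.03 to 0.08 TPM in WT libraries and 0.04 to 0.11 TPM in those of RhoB-/- mice, and was below the filter.

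Nox1 (ENSMUSG00000031257, minus strand of chromosome X, 134086421 to 134221956) was at 12.39, 18.96, 7.74, 17.53 and 10.81 TPM in WT replicates 1 to 5 and at 20.22, 11.42, 24.27, 7.04 and 9.24 TPM in RhoB-/- replicates 1 to 5. The RhoB-/- libraries spanned the whole WT range and went beyond it at both ends. The mean level was 13.5 ± 4.68 TPM for WT and 14.4 ± 7.43 TPM for RhoB-/- (SD, n = 5 each). The log2 fold change was 0.02 (limma adjusted p = 0.971), and its 95% interval allows a change from 0.624-fold to 1.65-fold on the log2(TPM + 1) scale. The sign of this value was not stable, since it was -0.04 after mitochondrial genes were left out, and ranged from -0.19 to 0.22 as each library was left out. Leaving out the library labelled RhoB-/- replicate 5 gave 0.13 (limma adjusted p = 0.812).

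Noxo1 (ENSMUSG00000019320, plus strand of chromosome 17, 24696234 to 24700529) was at 68.43, 97.28, 70.21, 81.85 and 68.45 TPM in WT replicates 1 to 5 and at 80.48, 62.46, 101.27, 67.43 and 107.73 TPM in RhoB-/- replicates 1 to 5. The groups overlapped over most of their ranges. The mean level was 77.2 ± 12.5 TPM for WT and 83.9 ± 20.1 TPM for RhoB-/- (SD, n = 5 each), with a log2 fold change of 0.10 (limma adjusted p = 0.698) and a 95% interval from 0.832-fold to 1.38-fold. Leaving out the library labelled RhoB-/- replicate 5 brought the log2 fold change to 0.0011 (limma adjusted p = 0.997). Of the 3013 exon bases annotated for Noxo1, 2122 are also exon of Tbl3 on the opposite strand, a gene at 12.5 ± 1.30 TPM for WT and 9.86 ± 2.05 TPM for RhoB-/- (SD, n = 5 each). Nox1 shares 399 of its 3307 exon bases with Cstf2 in the same way.

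Duox2 was also set against Nox1, the other epithelial oxidase. In WT libraries Duox2 stood at 0.908 to 3.27 times the TPM of Nox1 (median 1.93), and in RhoB-/- libraries at 3.61 to 23.1 times (median 8.90). The ranges did not overlap, the two-sided exact permutation p was 0.00794, the smallest that labelings of the 10 libraries allow, and adjusted over the 7 ratios it was 0.0556. Leaving out the library labelled RhoB-/- replicate 5 gave 3.61 to 14.3 times in the 4 others, and the same exact permutation p and adjusted p. The ratio of Noxo1 to Nox1 was 4.67 to 9.07 in WT and 3.98 to 11.7 in RhoB-/- libraries (exact permutation p = 0.857).

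The rest of the NADPH oxidase machinery was described by a list of 13 further genes, 7 of which passed the filter. Of these, 2 were called higher, Duoxa1 and Rac2, a Rac GTPase mostly of blood cells (1.55 ± 0.656 to 3.94 ± 1.27 TPM, SD, n = 5 each; log2 fold change 0.95, limma adjusted p = 0.0112), and 0 were called lower. The median log2 fold change of the 7 was 0.29, against -0.13 over all tested genes, of which 7.73% were called higher and 13.5% lower. Duoxa1 counts in both figures, although it passed the filter only through RhoB-/- mice and its direction was fixed. The most abundant members, Rac1 and Cyba, were not called: Rac1 was at 248.6 ± 28.6 TPM for WT and 304.3 ± 46.7 TPM for RhoB-/- (SD, n = 5 each; limma adjusted p = 0.139), and Cyba at 77.0 ± 11.7 and 110.7 ± 30.9 TPM (limma adjusted p = 0.0845). Recentring on the median gene brought both past the threshold (log2 fold changes 0.40 and 0.60, limma adjusted p = 0.00675 and 0.00810). Noxa1, the activator of NOX1, was at 34.4 to 41.5 TPM in WT libraries and 24.5 to 51.6 TPM in those of RhoB-/- mice, and its ratio to Nox1 had an exact permutation p of 0.548. Cybb, the oxidase subunit of phagocytes, stayed at or below 0.74 TPM in every library.

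Nos2 (ENSMUSG00000020826, plus strand of chromosome 11, 78920787 to 78960254) was at 2.05, 0.18, 1.91, 0.43 and 1.97 TPM in WT replicates 1 to 5 and at 19.84, 5.09, 6.10, 3.31 and 11.66 TPM in RhoB-/- replicates 1 to 5. Every RhoB-/- library was above every WT library, and RhoB-/- replicate 1 was the highest. The mean rose from 1.31 ± 0.921 to 9.20 ± 6.72 TPM (SD, n = 5 each), 7.03-fold, with a log2 fold change of 2.02 (95% interval 1.10 to 2.94, adjusted p = 0.00685 from limma). Without the library labelled RhoB-/- replicate 5 it was 1.89 (limma adjusted p = 0.0244). Among the 6 genes called higher it had the largest adjusted p, and as each library was left out its log2 fold change ranged from 1.71 to 2.27 with an adjusted p of at most 0.0274.

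Macrophages are another known source of NOS2. The summed level of 8 macrophage and monocyte markers was 17.5 to 30.7 TPM in WT and 22.5 to 46.9 TPM in RhoB-/- libraries. Of the 4 tested, Cd68 was called higher (0.988 ± 0.479 to 3.74 ± 2.20 TPM, SD, n = 5 each) and the 3 others were not called. Of all tested genes 7.73% were called higher and 13.5% lower. Cd68 and Lyz2, 1 of the 3 others, passed the filter only through RhoB-/- mice, so that their direction was fixed. Most of the sum of the 8 markers was Cd14, at 14.4 to 27.1 TPM in WT libraries and 17.9 to 34.8 TPM in those of RhoB-/- mice. Adgre1 was at 0 to 0.06 TPM in WT libraries and 0.02 to 2.14 TPM in those of RhoB-/- mice, and Csf1r at 0.03 to 0.39 and 0.25 to 0.83 TPM. The part of these cells in the Nos2 difference was not tested.

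Of 12 other genes of nitric oxide and arginine metabolism, 9 passed the filter, 2 were called higher and 1 lower, with a median log2 fold change of -0.14. That median is close to the -0.13 of all tested genes, of which 7.73% were called higher and 13.5% lower. Gch1, the first enzyme on the way to tetrahydrobiopterin, the cofactor of nitric oxide synthases, rose from 15.2 ± 1.73 to 25.8 ± 6.01 TPM (SD, n = 5 each; log2 fold change 0.71, limma adjusted p = 0.00634). Gchfr, the feedback regulator of that enzyme, rose from 7.81 ± 1.46 to 24.4 ± 4.11 TPM (log2 fold change 1.53, limma adjusted p = 2.29e-05). Ass1, which regenerates arginine from citrulline, fell from 18.8 ± 3.56 to 10.1 ± 1.10 TPM (log2 fold change -0.83, limma adjusted p = 0.00105). The later enzymes of the cofactor's synthesis, Spr and Pts, were the most abundant and were not called (log2 fold changes -0.18 and -0.30, limma adjusted p = 0.329 and 0.144), although Pts fell past the threshold without RhoB-/- replicate 3 (-0.39, limma adjusted p = 0.0373). Nos1 and Nos3, the other nitric oxide synthases, stayed at or below 0.11 TPM.

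Enzymes that remove peroxide and superoxide were followed as a further list. Of 17 listed, 14 passed the filter, 1 was called higher (Prdx5, 238.6 ± 34.2 to 338.3 ± 56.8 TPM, SD, n = 5 each; log2 fold change 0.50, limma adjusted p = 0.0267) and 1 lower (Cat, encoding catalase, 45.8 ± 6.80 to 34.6 ± 3.84 TPM; log2 fold change -0.39, limma adjusted p = 0.0441). Of all tested genes 7.73% were called higher and 13.5% lower, and the median of the 14 was -0.09, close to that of all tested genes. The count of 2 called enzymes ranged from 0 to 5 as each library was left out, with 0 without WT replicate 4, WT replicate 5 or RhoB-/- replicate 4 and 5 without RhoB-/- replicate 3. These were fragile calls: Prdx5 was called in 5 and Cat in 3 of the 10 fits that left out 1 library, and Prdx5 was not called without the library labelled RhoB-/- replicate 5 (log2 fold change 0.41, limma adjusted p = 0.0585). The most abundant were Prdx6 and Sod1, with log2 fold changes of -0.06 and -0.16 (limma adjusted p = 0.859 and 0.401), and the sign of the former turned when libraries were recentred on the median gene (0.06). Lpo, which encodes a peroxidase that uses hydrogen peroxide against bacteria, was at 18.3 ± 1.68 TPM for WT and 18.3 ± 4.61 TPM for RhoB-/- mice, and Mpo, that of neutrophils, was listed at 0 in every library.

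The Saa genes form a cluster of 42316 bases on chromosome 7. Saa3 (ENSMUSG00000040026, minus strand, 46711998 to 46715700), Saa1 (ENSMUSG00000074115, minus strand, 46740497 to 46742980) and Saa2 (ENSMUSG00000057465, plus strand, 46751790 to 46754313) lie in this order, and Saa1 and Saa2 are head to head. Their start windows are shown with that of Lcn2, since all 4 hold a match to the C/EBP motif (TTGNNCAA or TTGCNNAA), which 14% of 32851 windows hold. They come from RefSeq on GRCm38.p6, 5′ to 3′ on the strand of each gene, from chr7:46742931-46743230 (minus strand, Saa1), chr7:46751583-46751882 (plus strand, Saa2), chr7:46715627-46715926 (minus strand, Saa3) and chr2:32387690-32387989 (minus strand, Lcn2). RefSeq and GENCODE starts differ for Lcn2, whose window lies wholly inside its GENCODE gene, and for Saa2 and Saa3. Capitals mark the C/EBP match and, in Saa3, a match to the ISRE motif, the first of the 2 runs of capitals, which begins at -125 from the start and is held by 3.44% of windows.
Saa1: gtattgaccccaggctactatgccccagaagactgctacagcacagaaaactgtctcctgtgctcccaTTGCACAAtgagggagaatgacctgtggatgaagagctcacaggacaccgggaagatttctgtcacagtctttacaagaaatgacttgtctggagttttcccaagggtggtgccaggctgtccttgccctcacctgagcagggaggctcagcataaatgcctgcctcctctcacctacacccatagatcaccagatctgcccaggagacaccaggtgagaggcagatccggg
Saa2: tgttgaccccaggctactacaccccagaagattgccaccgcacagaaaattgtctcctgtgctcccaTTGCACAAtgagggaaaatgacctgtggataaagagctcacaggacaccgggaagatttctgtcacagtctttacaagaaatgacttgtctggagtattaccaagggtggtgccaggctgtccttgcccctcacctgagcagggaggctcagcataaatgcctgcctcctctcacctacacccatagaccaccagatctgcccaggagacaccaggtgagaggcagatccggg
Saa3: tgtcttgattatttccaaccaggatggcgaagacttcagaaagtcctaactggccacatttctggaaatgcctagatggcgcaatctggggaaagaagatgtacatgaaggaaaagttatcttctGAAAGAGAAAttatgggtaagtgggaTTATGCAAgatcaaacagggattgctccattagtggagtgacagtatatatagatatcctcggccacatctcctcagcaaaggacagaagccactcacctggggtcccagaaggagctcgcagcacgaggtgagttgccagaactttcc
Lcn2: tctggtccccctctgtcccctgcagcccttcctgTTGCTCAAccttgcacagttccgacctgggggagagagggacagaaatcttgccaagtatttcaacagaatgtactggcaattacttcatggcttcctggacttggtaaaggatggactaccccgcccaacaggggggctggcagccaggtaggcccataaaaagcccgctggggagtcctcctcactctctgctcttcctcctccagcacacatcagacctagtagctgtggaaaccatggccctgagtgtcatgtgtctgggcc
Counted in bases from the start, the C/EBP match began at -182 in Saa1, -183 in Saa2, -99 in Saa3 and -216 in Lcn2. The windows of Saa1 and Saa2 were identical at 287 of 301 aligned positions (95.3%), and those of Saa1 and Saa3 at 49.4%. A NF-kB match was found only in the window of Nox1 among the 8 genes with a window, and that window lies inside its GENCODE gene. The NF-kB motif was held by 1.63% and the STAT motif (TTCNNNGAA) by 8.30% of all windows. The matches are letters in a window, and binding was not measured here.

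Saa1 was the most abundant of the 9 genes in every library. It was at 156.31, 542.48, 461.94, 265.48 and 367.72 TPM in WT replicates 1 to 5 and at 2121.46, 1257.43, 1790.71, 1836.75 and 2490.56 TPM in RhoB-/- replicates 1 to 5. Even the lowest RhoB-/- library was more than 2 times as high as the highest WT library. The mean rose from 358.8 ± 153.4 to 1899 ± 454.6 TPM (SD, n = 5 each), 5.29-fold, with a log2 fold change of 2.49 (95% interval 1.83 to 3.16, adjusted p = 2.32e-04 from limma). This took Saa1 from rank 302 to rank 50 by level among the tested genes. Without the library labelled RhoB-/- replicate 5 the log2 fold change was 2.39 (limma adjusted p = 0.00139).

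Saa2 was at 0.60, 2.77, 1.16, 1.41 and 1.55 TPM in WT replicates 1 to 5 and at 6.50, 4.71, 3.56, 4.98 and 6.15 TPM in RhoB-/- replicates 1 to 5. The groups did not overlap, with the highest WT library, replicate 2, just below the lowest RhoB-/- library, replicate 3. The mean rose from 1.5 ± 0.798 to 5.18 ± 1.18 TPM (SD, n = 5 each), 3.46-fold, with a log2 fold change of 1.34 (95% interval 0.86 to 1.82, adjusted p = 0.00177 from limma), and of 1.28 (limma adjusted p = 0.00736) without the library labelled RhoB-/- replicate 5. The level of Saa2 is uncertain beside that of Saa1, whose TPM was 188 to 398 times as high in WT and 267 to 503 times as high in RhoB-/- libraries (exact permutation p = 0.0556, adjusted p = 0.0778). The annotated coding transcripts of Saa1 and Saa2 share no stretch of 100 bases, but 74 of the 560 stretches of 50 bases in Saa1 (13.2%) also occur in Saa2. How reads common to both were shared out in the deposited values was not tested.

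Saa3 had the largest change of the 9 genes. It was at 0.60, 1.17, 2.83, 2.98 and 1.64 TPM in WT replicates 1 to 5 and at 47.27, 21.67, 61.74, 18.06 and 93.67 TPM in RhoB-/- replicates 1 to 5. The groups were far apart, and RhoB-/- replicates 2 and 4 were the lowest of their group, as for Duoxa2, Nos2 and Noxo1. The mean rose from 1.84 ± 1.04 to 48.5 ± 31.1 TPM (SD, n = 5 each), 26.3-fold, with a log2 fold change of 3.95 (95% interval 3.04 to 4.87, adjusted p = 7.80e-05 from limma), the 24th largest of the 12870 tested genes. Its rank by level went from 11641 to 2210. The log2 fold change was 3.65 (limma adjusted p = 2.44e-04) with the library labelled RhoB-/- replicate 5 left out. Saa1 stood at 89.1 to 464 times the TPM of Saa3 in WT libraries and at 26.6 to 101.7 times in RhoB-/- libraries (exact permutation p = 0.0159, adjusted p = 0.0556 over the 7 ratios), and at 29.0 to 101.7 times without the library labelled RhoB-/- replicate 5 (exact permutation p = 0.0238, adjusted p = 0.0833). Saa4, the constitutive member of the family, was at most 0.19 TPM in any library.

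Lcn2 (ENSMUSG00000026822, minus strand of chromosome 2, 32384633 to 32388252) was barely detected. It was at 0.12, 0.27, 0.17, 0 and 0.05 TPM in WT replicates 1 to 5 and at 0.46, 0.17, 0.25, 0.31 and 0.46 TPM in RhoB-/- replicates 1 to 5. The groups overlapped, and no library of either genotype reached 0.5 TPM. The mean was 0.122 ± 0.105 TPM for WT and 0.330 ± 0.129 TPM for RhoB-/- (SD, n = 5 each), a difference of 0.208 TPM with a two-sided exact permutation p of 0.0397 that is not adjusted over all genes. The gene was below the filter, and without a filter limma gave a log2 fold change of 0.24 with an adjusted p of 0.103. The difference was 0.176 TPM (exact permutation p = 0.0635) without the library labelled RhoB-/- replicate 5.

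Few other acute-phase genes were detected. Of 21 other acute-phase and iron-withholding genes, 7 were listed at 0 in every library, among them Crp, Orm1 and the fibrinogen genes Fgb and Fgg, and 13 were listed at 0 in every WT library. Only Steap4, Hamp and Lrg1 passed the filter, all 3 through their level in RhoB-/- mice alone, so that their direction was fixed by the filter and their values are given as a description. Steap4, a metalloreductase, went from 0.858 ± 0.342 to 4.07 ± 1.35 TPM (SD, n = 5 each; log2 fold change 1.43, limma adjusted p = 9.34e-04). Hamp, which encodes the iron hormone hepcidin, was listed at 0 in all 5 WT libraries and at 2.32, 1.96, 2.44, 3.08 and 5.68 TPM in RhoB-/- replicates 1 to 5 (limma adjusted p = 1.33e-04). Lrg1 was not called (limma adjusted p = 0.0877) and split the RhoB-/- group, with 14.67, 9.11 and 3.52 TPM in replicates 1, 3 and 5 but 0.37 and 0.16 TPM in replicates 2 and 4, where WT libraries had 0.24 to 0.51 TPM. It passed the threshold without replicate 2 or without replicate 4 of that group (limma adjusted p = 0.0486 and 0.0360).

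**Figure D3:**
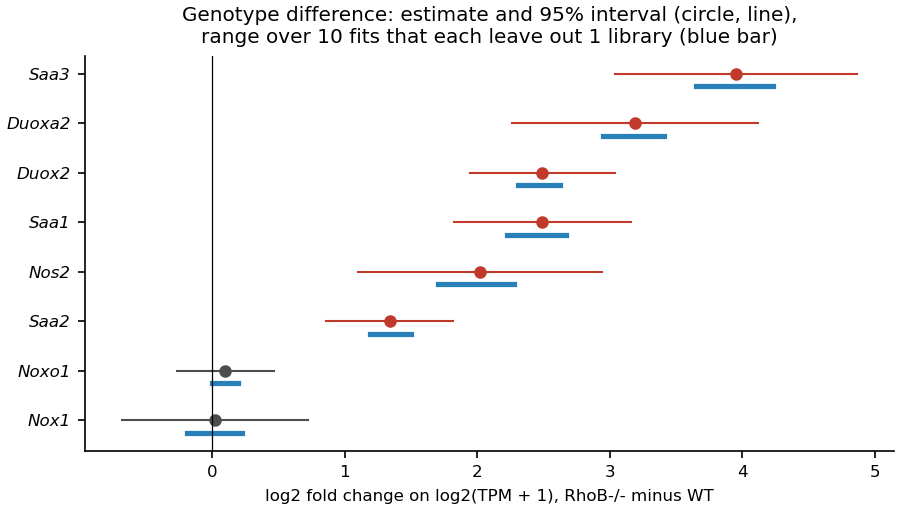
Log2 fold change of RhoB-/- against WT on log2(TPM + 1) for the 8 genes above the filter, with the limma estimate (circle) and its 95% interval (line), red where called and grey where not, and the range of the estimate over the 10 fits that each left out 1 library (blue bar). The intervals of Saa3, Duoxa2, Duox2, Saa1, Nos2 and Saa2 lie above 0, and those of Noxo1 and Nox1 include it.

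The levels of the 9 genes were ordered differently in the 2 genotypes, compared on TPM, which is per length. In WT libraries the order by median was Saa1, Noxo1, Duox2, Duoxa2, Nox1, Nos2, Saa3, Saa2 and Lcn2. The ranges of neighbours overlapped among Duox2, Duoxa2 and Nox1, and among Nos2, Saa3 and Saa2, and were apart elsewhere. In RhoB-/- libraries the order was Saa1, Duoxa2, Duox2, Noxo1, Saa3, Nox1, Nos2, Saa2 and Lcn2, in which Saa1 stood clear at the top and Lcn2 at the bottom, and the ranges of all other neighbours overlapped. Saa3 thus went from 1.64 TPM, near Nos2 and Saa2, to 47.27 TPM by median.

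Libraries of a genotype also differed from each other. The library labelled RhoB-/- replicate 5 was among the 2 highest RhoB-/- libraries for 8 of the 9 genes, and RhoB-/- replicate 1 for 7, whereas replicates 2 and 4 were among the 2 highest for 0 of the 9. No such order of libraries was seen in WT mice, where each library was among the 2 highest for 1 to 5 of the genes. The 6 rising genes were called in each of the 10 fits that left out 1 library, so no library alone decided a call. In WT mice, replicates 2 and 4 had the lowest Duox2, Duoxa2 and Nos2 and the highest Nox1 and Noxo1. This was an opposite order of the DUOX2 and NOX1 systems among mice of 1 genotype, seen in 5 libraries and not tested.

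Hoxb13, a homeobox gene that is expressed at the distal end of the colon, differed between the genotypes. It was at 50.02, 135.04, 67.15, 79.41 and 74.99 TPM in WT replicates 1 to 5 and at 22.42, 35.13, 17.75, 26.46 and 13.99 TPM in RhoB-/- replicates 1 to 5, without overlap (log2 fold change -1.76, limma adjusted p = 0.00113). Hoxa13 fell as well (log2 fold change -0.88, limma adjusted p = 0.0171), and the summed level of 5 genes of distal position was 70.1 to 176.9 TPM in WT and 20.3 to 49.1 TPM in RhoB-/- libraries. Within WT mice, replicates 2 and 4, the highest in Hoxb13, were those lowest in Duox2, Duoxa2 and Nos2. Within RhoB-/- mice, replicates 2 and 4 were again the highest in Hoxb13 and the lowest in Duoxa2, Nos2, Saa3 and Noxo1, but not in Duox2, Saa1, Saa2, Nox1 or Lcn2, where another library was the lowest or next to lowest. Saa1 and Saa2 went the other way in WT mice, where replicate 1 had the lowest and replicate 2 the highest level of Hoxb13 and of both genes, and Nox1 and Noxo1 were highest in replicates 2 and 4, as Hoxb13 was. Of 7 genes listed as ileal markers only 3 passed the filter, and 2 of these were called higher, beside 7.73% of all tested genes. They were Slc10a2 and Fabp2 (log2 fold changes 1.49 and 0.60, limma adjusted p = 0.00205 and 0.0490), the latter in only 2 of the 10 fits that left out 1 library. Fabp2 was abundant in WT libraries too, at 739.6 ± 108.2 TPM (SD, n = 5), and made up most of the summed level of the list. Hoxa13 was lost without WT replicate 2 (log2 fold change -0.81, limma adjusted p = 0.0512). The part that the sampled stretch of gut had in the differences was not tested.

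**Figure D4:**
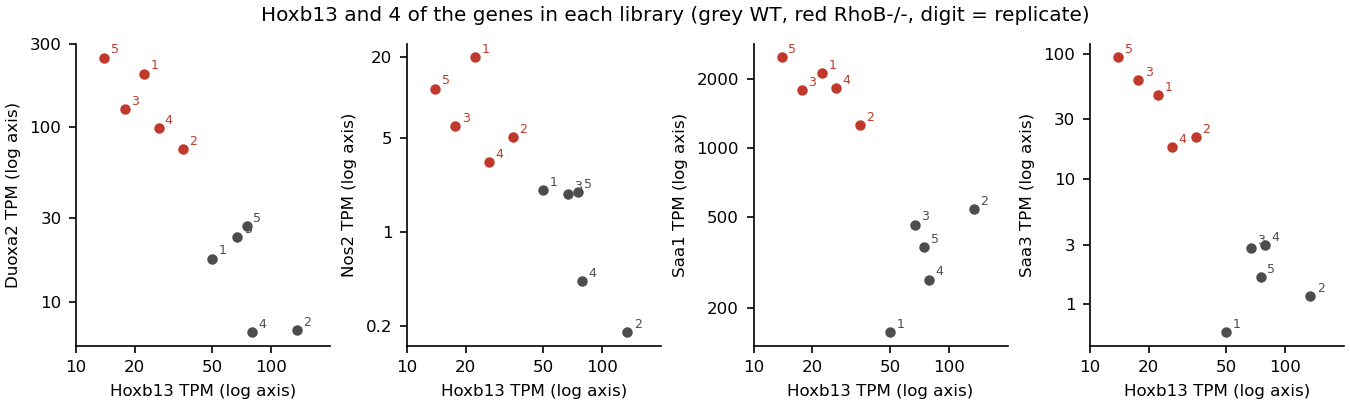
TPM of Duoxa2, Nos2, Saa1 and Saa3 against TPM of Hoxb13 in the 5 WT (grey) and 5 RhoB-/- (red) libraries, all axes logarithmic, each point a library with its replicate number. The RhoB-/- libraries, at 13.99 to 35.13 TPM of Hoxb13, lie above and to the left of the WT libraries, at 50.02 to 135.04 TPM.

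Markers of immune cells also moved with genotype. Of 8 markers of T cells and intraepithelial lymphocytes, 7 were called higher, beside 7.73% of all tested genes. Among the 7, Cd8a and Itgae passed the filter only through RhoB-/- mice, so that their direction was fixed. The summed level of the 8 markers was 10.5 to 22.8 TPM in WT and 56.9 to 65.4 TPM in RhoB-/- libraries, led by Gzma (4.23 ± 1.87 to 24.0 ± 2.25 TPM, SD, n = 5 each). The sum of 7 B and plasma cell markers was 1.02 to 4.19 and 4.71 to 20.5 TPM, with Igha called higher and Mzb1 at 0 in WT. Of 6 neutrophil markers only Ly6g passed the filter and rose (21.2 ± 7.92 to 71.1 ± 17.9 TPM, limma adjusted p = 5.22e-04), while S100a8 and S100a9 were at 0 in all WT libraries and at most 4.99 and 4.23 TPM in RhoB-/- libraries, and Mpo was at 0 throughout. Ly6g was at 11.74 to 33.69 TPM in WT libraries that had none of S100a8, S100a9 and Mpo, so its level is not read as a measure of neutrophils. The sum of 9 markers of stroma, vessel and muscle was 4.23 to 5.52 and 6.68 to 36.6 TPM, with Dcn called higher, except without WT replicate 4 or RhoB-/- replicate 4 (limma adjusted p = 0.0509 and 0.0542). Of 12 heat shock and immediate-early genes, all tested, 5 were called lower and 0 higher, beside 13.5% and 7.73% of all tested genes. The 5 were Hspa1a, Hspa1b, Hsph1, Dnajb1 and Hspb1, with Hspa1a falling from 841.9 ± 166.3 to 54.8 ± 14.5 TPM, and the others were not called. The part of these differences in the values of the 9 genes was not tested.

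The receptors through which IL-22, IL-17 and IL-6 reach epithelial cells were followed as a list of 18 genes. The list also holds regulators and other receptor and sensor genes, such as Il1r1, Tlr4 and Nod2. Of the 16 above the filter, 3 were called higher and 2 lower, with a median log2 fold change of 0.37. Of all tested genes 7.73% were called higher and 13.5% lower, with a median of -0.13. The IL-22 receptor chain Il22ra1 rose from 11.4 ± 2.14 to 20.2 ± 5.0 TPM (SD, n = 5 each; log2 fold change 0.76, limma adjusted p = 0.00728), Zc3h12a, which encodes a ribonuclease that degrades inflammatory mRNAs, from 18.3 ± 6.57 to 44.9 ± 10.7 TPM (1.28, limma adjusted p = 0.00308), and Tlr4, the receptor for lipopolysaccharide, from 3.93 ± 0.535 to 9.0 ± 2.33 TPM (0.99, limma adjusted p = 0.00223). The receptor gene Il1r1 and the transcription factor gene Cebpb fell, with log2 fold changes of -0.79 and -1.13 (limma adjusted p = 0.0192 and 0.0148), and Il1r1 was lost without WT replicate 2 (-0.75, limma adjusted p = 0.0509). Cebpb encodes a member of the C/EBP family, and was at 17.7 ± 6.33 TPM for WT and 7.55 ± 3.04 TPM for RhoB-/- mice. Il17rc and Nfkbiz, the most abundant, were not called (log2 fold changes 0.37 and 0.43, limma adjusted p = 0.120 and 0.255), although Il17rc was after recentring (0.49, limma adjusted p = 0.00834). Socs3, a target of STAT3, was at 7.54 to 11.3 TPM in WT libraries and at 56.48, 8.60, 19.90, 7.69 and 17.15 TPM in RhoB-/- replicates 1 to 5, again lowest in replicates 2 and 4. Socs3 was not called (log2 fold change 0.86, limma adjusted p = 0.152).

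Of 9 cytokine genes listed, 3 passed the filter, Il18, Tnf and Il1b, which encode no ligand of the IL-22, IL-17 or IL-6 receptors. The ligand genes Il22, Il17a, Il17f and Il6 were all below the filter. Il1b passed only through RhoB-/- mice, so that its direction was fixed, and was not called (0.372 ± 0.370 and 1.97 ± 1.76 TPM, SD, n = 5 each; log2 fold change 0.94, limma adjusted p = 0.0948). Il22 was listed at 0 in every WT library and at most 0.35 TPM in RhoB-/- libraries, and Il17a at most 0.07 TPM in any library. Il18, an epithelial cytokine, fell from 89.2 ± 23.1 to 45.9 ± 7.56 TPM (SD, n = 5 each; log2 fold change -0.91, limma adjusted p = 0.00784). Tnf was not called (6.10 ± 4.27 and 4.89 ± 2.02 TPM, log2 fold change -0.14, limma adjusted p = 0.812), and the sign of this value turned under quantile normalization (0.02).

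The genes whose log2(TPM + 1) was most like that of each of the 8 genes above the filter were named as a description, by Pearson's r over all 10 libraries, the library labelled RhoB-/- replicate 5 included. For the rising genes this r reflects the gap between the genotypes, which all points of a group share. For Duox2 they were Sh3kbp1 (r = 0.991), Cd55 and Gda (both 0.987), and for Duoxa2 Slc16a3 (0.989), Sgk2 and Rhof (both 0.978). For Nos2 they were Srgn (0.989), which encodes the proteoglycan serglycin, Ak4 (0.973) and Duoxa2 (0.949), for Saa1 Sectm1b, Gsdmd and Ms4a8a (0.989, 0.986 and 0.985), for Saa2 Ly6g, Clic5 and Muc13 (0.987, 0.981 and 0.976), and for Saa3 H2-T3, Btnl2 and Tap1 (0.982, 0.979 and 0.977). For Nox1 they were Hip1r, Clca3b and Efcab11 (0.924, 0.908 and 0.894), and for Noxo1 Cep19, Sestd1 and Slc6a9 (0.962, 0.960 and 0.953). After the genotype means were taken out, Sh3kbp1 remained first for Duox2 (r = 0.943), Srgn for Nos2 (0.967) and Sectm1b for Saa1 (0.960), while Rhof came first for Duoxa2 (0.958), Avl9 for Saa2 (0.944), Slc26a1 for Saa3 (0.974), Gcat for Nox1 (0.958) and Paqr4 for Noxo1 (0.984). Each is the highest value over all tested genes, on 10 libraries.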

How the data were processed

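Libraries of colonic IEC RNA, 5 WT and 5 RhoB-/-, were used, with genotype and replicate number from the labels. The authors sequenced paired-end reads of 150 bases, used SeqPrep and Sickle for trimming, HISAT2 for alignment, StringTie for assembly and RSEM for quantification, and deposited TPM values rounded to 2 decimals. The submitters' processing notes name GRCm38.p6 and edgeR. The alignment is described as made in orientation mode. Versions, annotation release and the strand setting of the counting are not given in the sources used here. Each library has its own TPM scale, so that a change in abundant genes moves all others, and depth and counting error are unknown.

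Genes whose mean TPM reached 1 were compared with limma 3.58.1 in R 4.3.3 (intensity trend, log2(TPM + 1), Benjamini-Hochberg adjustment over 12870 genes, called below 0.05). The procedure was tested on simulated data. Lcn2, the ratios and genes below the filter were compared by two-sided exact permutation over all labelings. Positions and exon overlaps are from GENCODE release M21, promoter windows from RefSeq on GRCm38.p6, in which 8 of the 9 genes were matched and Nos2 was not. Starts differ between these sources for some genes.

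The genes, lists and tests were chosen with earlier results of these data known. All 9 genes are named, with the called genes of each list of up to 6, the 2 most abundant genes of each pathway list, markers called or at 0, and for each of the 8 genes above the filter the 3 most alike by Pearson's r. Duox1, Noxa1, Cybb, Nos1, Nos3, Lpo, Saa4, Socs3, Il22, Il17a, Il17f, Il6, Il1b, Cd14, Lyz2, Adgre1, Csf1r, Tbl3, Cstf2 and the order of libraries were added after their values were seen. Alternatives were a pseudocount of 0.1, no filter or a mean TPM of at least 5, quantile normalization, recentring on the median, rescaling without mitochondrial genes, no trend, an unadjusted p below 0.05 with a fold change above 1.5, a replicate block, and each library left out in turn. Ratios without RhoB-/- replicate 5 were added after seeing the data.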

Additional observations from a re-analysis of the deposited data

Results flagged for a closer look

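In 4 of 116 groups of 5 libraries 1 library stood far from the rest of its genotype (gap over range above 0.71, Dixon's 95% value for 5 samples), and chance flags about 1 in 20 groups. None of the 18 groups of the 9 genes was among them. The library labelled RhoB-/- replicate 5 had 110.87 TPM of Rhob, against at most 0.57 TPM in the other RhoB-/- libraries. Ass1 was at 25.07 TPM and Il22ra1 at 15.2 TPM in WT replicate 2, each the highest of the WT group, and Dnajb1 was at 72.16 TPM in WT replicate 1, the lowest of it.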

How the results depend on the processing

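The 6 rising genes were called under every alternative that tested them, while Nos2 was not far from the threshold without 1 library and Saa2 was not tested at a mean TPM of at least 5, where 5 of the 6 were called. The replicate numbers did not pair the mice (correlations of deviations -0.09 to 0.07), and with the replicate block 1895 genes were called in place of 2729 (1059 in place of 1734 lower), with the 6 genes still called. Over all genes, 4667 were called (3536 lower) without mitochondrial genes, 1587 higher with quantile normalization, 2010 higher after recentring, 1104 lower at a mean TPM of at least 5, and 1072 lower at an unadjusted p below 0.05 with a fold above 1.5. Leaving out 1 library gave 1576 (without WT replicate 4) to 3960 (without RhoB-/- replicate 3) called, 716 to 1158 higher and 860 to 2929 lower, and without RhoB-/- replicate 1 1754 were called. The other lists held 15 called genes, and 23 without mitochondrial genes. The cause of these shifts was not tested. The Lcn2 difference of 0.208 TPM ranged from 0.176 to 0.248 TPM as libraries were left out and missed the threshold in 6 of 10 cases (highest exact permutation p = 0.0794). Of the 9 genes only Nox1 changed sign (-0.0427 without mitochondrial genes, -0.19 to 0.22 as libraries were left out). Among list genes, Prdx6 turned to 0.0569 after recentring (-0.25 to 0.0639 over libraries left out) and Tnf to 0.0235 with quantile normalization (-0.31 to 0.13). The ratio of Noxo1 to Nox1 (log2 difference 0.0833) turned to -0.137 without RhoB-/- replicate 5, an alternative chosen after seeing the data, and the other 6 ratios kept their direction. TPM gives no depth, so values near 0, as for Lcn2, have no counting error here.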
